A study of Rattus norvegicus with 24 samples.

Results

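This account follows the 5 actin genes in the plantaris of female rats, a muscle of the calf: Acta1, Actc1, Acta2, Actb and Actg1. They were chosen by their Ensembl gene IDs (ENSRNOG00000017786, ENSRNOG00000008536, ENSRNOG00000058039, ENSRNOG00000034254 and ENSRNOG00000036701) among 31998 IDs in the deposited table. The rule uses no measured value, although the choice was made with earlier results of these data known. The table gives IDs only, the gene names come with the list of members, and 0 IDs matched the RefSeq name table used here. Other genes, markers of the tissue and of its cell types included, therefore could not be read by name. RNA was sequenced from LRT overload, LRT control, HRT overload and HRT control muscle, with 6 libraries in each group. LRT and HRT are rat lines bred for a low and a high response to endurance training, and all animals were 14 months old and of generation 19. In both overload groups the gastrocnemius and soleus of one leg had been removed, and the plantaris was taken 14 days later. From the labels it cannot be told whether control muscle was taken from other rats or from the unoperated leg, or whether a control operation was done. Nor do they state that each library came from a separate rat, so the p-values reflect the spread among libraries, which may be partly technical. Library totals ran from 26997674 to 34254957 estimated counts.

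Actins are the proteins of thin filaments and of the cell cortex. Acta1, skeletal alpha-actin, is the actin of the adult skeletal sarcomere, and Actc1, cardiac alpha-actin, is the actin of heart muscle and of developing and regenerating skeletal fibres. Acta2 is the alpha-actin of vascular smooth muscle and of myofibroblasts. Actb and Actg1 are the cytoplasmic beta- and gamma-actins, which form the cytoskeleton of stromal, immune and other non-muscle cells and occur at low levels in fibres. The coding sequences of these genes are very similar, so a read can match several of them.

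Many actin genes carry CArG boxes, the binding site of serum response factor, near their start. The promoter stretches of Acta1, Actc1 and Acta2 are shown because these 3 alpha-actins behaved differently under overload while holding matches to the same motif. The sequences are from RefSeq on the rat build GRCr8, 250 bases ending at the base before the annotated start, read 5′ to 3′ on the minus strand, on which all 3 genes lie. Capitals mark CArG boxes (CC and GG around 6 bases that are each A or T) and copies with 1 G or C among those 6 bases.
Acta1 promoter, chr19:68784195-68784444: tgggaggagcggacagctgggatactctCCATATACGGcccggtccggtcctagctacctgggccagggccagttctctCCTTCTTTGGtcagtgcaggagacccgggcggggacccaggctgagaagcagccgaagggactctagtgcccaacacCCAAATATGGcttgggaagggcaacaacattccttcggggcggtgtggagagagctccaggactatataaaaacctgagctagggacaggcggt
Actc1 promoter, chr3:121271828-121272077: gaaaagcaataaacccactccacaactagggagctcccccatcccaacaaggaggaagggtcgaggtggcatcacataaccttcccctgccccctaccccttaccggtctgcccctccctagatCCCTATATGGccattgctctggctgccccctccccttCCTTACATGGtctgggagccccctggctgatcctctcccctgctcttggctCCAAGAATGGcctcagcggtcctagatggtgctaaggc
Acta2 promoter, chr1:241172504-241172753: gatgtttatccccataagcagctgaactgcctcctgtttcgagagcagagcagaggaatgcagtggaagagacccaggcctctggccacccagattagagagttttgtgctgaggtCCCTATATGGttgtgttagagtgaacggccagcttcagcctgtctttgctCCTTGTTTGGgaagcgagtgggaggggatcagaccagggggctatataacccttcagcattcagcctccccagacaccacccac

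The search covered both strands of windows from 250 bases before to 50 bases after the start. A promoter entry was matched for 4 of the 5 genes: Acta1, Actc1, Acta2 and Actg1. Acta1 held 1 full CArG box, CCAAATATGG at positions -94 to -85, counted back from the annotated start. Actc1 held a full box, CCAAATAAGG, at positions 3 to 12 after the annotated start, besides the 3 imperfect copies shown. Acta2 held 2 imperfect copies and no full box, and one of them, CCCTATATGG at -134 to -125, has the same letters as the Actc1 copy at -126 to -117. Actg1 held 1 full box, CCATATATGG, at -90 to -81. Full boxes were found in 1.64% of 33469 rat promoter windows, and windows with at least 2 full or imperfect copies made up 0.846%. Among the shorter motifs, the exact string TATAAA was found in Acta1 alone of the 4 windows and in 14.2% of all windows. Variants of it were not searched for. CATTCC, the MCAT motif of TEAD factors, occurred once each in Acta1 and Acta2 and in 14.2% of all windows. CANNTG, the general E-box pattern, occurred once each in Acta1 and Acta2, as CAGCTG, and in Actg1, as CACGTG. It was found in 72.1% of all windows. No matches to different motifs overlapped in these 4 windows. These matches describe letters and do not show that a factor binds.

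**Figure D1:**
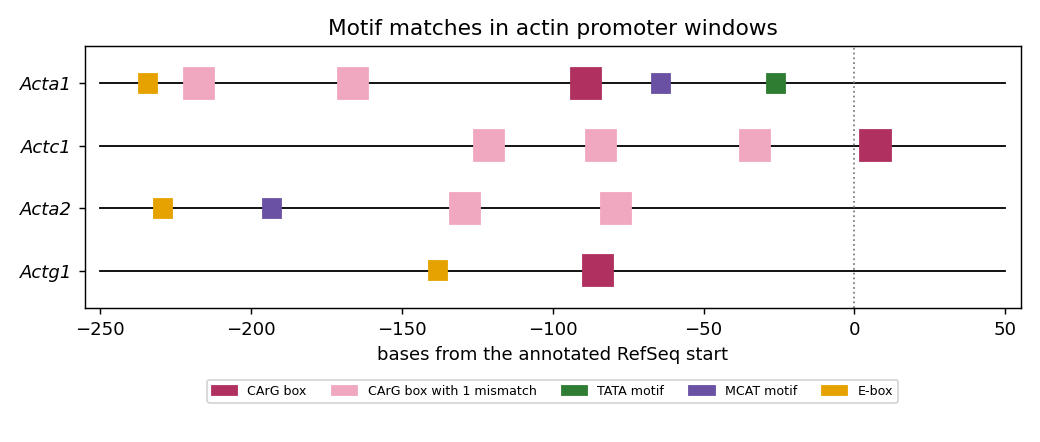
Motif matches in the promoter windows of Acta1, Actc1, Acta2 and Actg1, by position in bases from the annotated RefSeq start (dotted line). Blocks mark matches on either strand. Full CArG boxes and copies with 1 mismatch are tall blocks. The TATA (exact TATAAA), MCAT and E-box motifs are short ones. Full boxes lie at -94 to -85 in Acta1, at 3 to 12 in Actc1 and at -90 to -81 in Actg1.

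With overload the cardiac, smooth muscle and cytoplasmic beta-actin genes rose in both lines, and the adult skeletal actin gene did not pass the test in either. Levels are given as CPM, counts scaled to library size with TMM factors (trimmed mean of M values). Tests are edgeR quasi-likelihood tests adjusted by Benjamini-Hochberg over 16661 genes, with a threshold of 0.05. Those that rose were Actc1, Acta2 and Actb, and the one that did not pass was Acta1. Over all genes tested, 57.2% changed and 28.9% rose with overload in LRT, and 63.2% changed and 31.9% rose in HRT. All 4 genes had at least 108 estimated counts in each library, so none entered the test through the overloaded libraries alone. Actg1 was listed at 0 in 23 of 24 libraries and at 0.000454 counts in the remaining one, and it was not tested. Cytoplasmic gamma-actin is made by nearly every cell, so the listed 0 is not read as absence. Where its reads were counted is not given in the sources used here. The values of Actb and the other actins may hold reads of Actg1, and this was not tested.

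**Figure D2:**
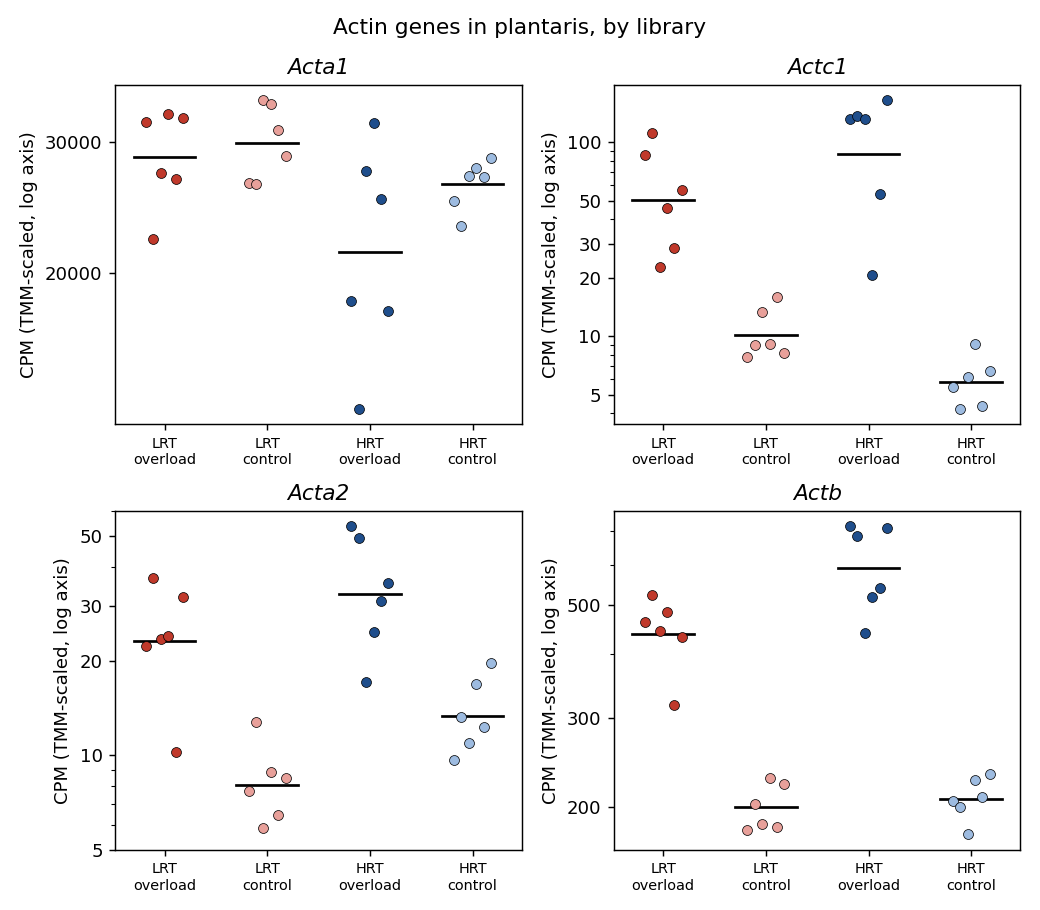
CPM (TMM-scaled, log axes) of Acta1, Actc1, Acta2 and Actb in each of the 24 libraries, with LRT overload, LRT control, HRT overload and HRT control from left to right. Points are libraries, in the order of their replicate numbers, and lines are geometric means. For Actc1 and Actb no overloaded library falls within the control range of its line, and for Acta1 overloaded and control ranges overlap. The share of all tested genes without such overlap was not counted.

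Acta1, the actin of the adult sarcomere, took a large part of all reads. It held 3.0% ± 0.308 of all counts in LRT overload and 2.65% ± 0.243 in LRT control, 2.51% ± 0.553 in HRT overload and 2.48% ± 0.172 in HRT control (SD, n = 6 each). LRT overload libraries ran from 22250 over a median of 29590 to 32710 CPM, against 26330, 29950 and 34100 CPM in LRT control. The groups overlapped, and replicate 2 was the only LRT overload library below all controls. As a share of library totals, 0 LRT overload libraries lay below all LRT controls and 3 (replicates 1, 4 and 6) lay above them. The change on the log2 scale was -0.06 ± 0.161 (SE; edgeR adjusted p = 0.775), with an approximate 95% interval of -0.40 to 0.28.

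In HRT the overloaded libraries were spread more widely than their controls. HRT overload libraries ran from 13180 over a median of 21760 to 31780 CPM, against 23180, 26940 and 28550 CPM in HRT control. Replicates 1, 2 and 6 lay below all HRT controls and replicate 4 above them, so the overloaded range enclosed the control range. This count holds for TMM-scaled CPM. As a share of library totals, 1 HRT overload library (replicate 2) lay below all HRT controls and 3 (replicates 3, 4 and 5) lay above them. The fitted log2 fold change stood at -0.24 ± 0.161 (SE; edgeR adjusted p = 0.193), with an approximate interval of -0.58 to 0.09. Without replicate 4 of HRT overload it was -0.37 (edgeR adjusted p = 0.038), and with the RNA integrity number (RIN) as a covariate it was -0.63 (edgeR adjusted p = 0.0232). With RIN and the replicate number as a block it was -0.58 (edgeR adjusted p = 0.0459). Acta1 in HRT passed in these 3 of 23 other settings alone. Scaling by library totals gave the largest edgeR adjusted p, 0.915.

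The sign of these small Acta1 values depended on scaling. With libraries scaled by their totals alone, the median gene shifted upward by 0.24 in LRT and by 0.29 in HRT on the log2 scale, relative to TMM. Acta1 then stood at 0.18 in LRT and 0.02 in HRT. Relative to the median gene, Acta1 was at -0.04 in LRT and -0.22 in HRT under TMM, and at -0.04 in LRT and -0.25 in HRT under scaling by totals. The other 3 actins rose under both scalings and under DESeq2 size factors.

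Actc1, the cardiac actin that developing and regenerating fibres also use, rose most among the 4 tested actins. It rose 5.52-fold in LRT and 17.7-fold in HRT. LRT overload libraries ran from 22.7 over a median of 51.1 to 111.6 CPM, against 7.84, 9.03 and 16.0 CPM in LRT control. HRT overload libraries ran from 20.6 over a median of 131.4 to 164.3 CPM, against 4.23, 5.80 and 9.08 CPM in HRT control. In each line all 6 overloaded libraries lay above all 6 controls. How many of all tested genes separate in this way, as Actb also does below, was not counted. On the log2 scale the change was 2.47 ± 0.433 in LRT (SE; edgeR adjusted p = 5.97e-05) and 4.15 ± 0.467 in HRT (edgeR adjusted p = 1.65e-07). In HRT only 68 of the other tested genes had a larger log2 fold change. In LRT there were 330 such genes. Acta1 reads counted as Actc1 would enter these levels and folds. They would weigh most in the controls, where Actc1 was lowest, and their share was not tested.

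Overloaded muscles differed widely from each other in Actc1. The highest overloaded library exceeded the lowest 4.92-fold in LRT and 7.96-fold in HRT, against 2.04-fold in LRT control and 2.14-fold in HRT control. The SD of log2 CPM was 0.888 in LRT overload, at percentile 97.7 of all tested genes, against 0.416 at percentile 81.7 in LRT control. It was 1.16 in HRT overload, at percentile 98.5, against 0.406 at percentile 84.6 in HRT control. In HRT overload, replicates 1, 2, 3 and 6 lay between 131.2 and 164.3 CPM, replicate 5 was at 53.8 CPM and replicate 4 at 20.6 CPM. In LRT overload, replicate 2 was highest at 111.6 CPM, followed by replicate 1 at 85.5 CPM.

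Acta2, the actin of vascular smooth muscle and myofibroblasts, rose 2.98-fold in LRT and 2.56-fold in HRT. LRT overload libraries ran from 10.3 over a median of 23.7 to 36.9 CPM, against 5.86, 8.07 and 12.7 CPM in LRT control. HRT overload libraries ran from 17.1 over a median of 33.2 to 53.9 CPM, against 9.66, 12.8 and 19.7 CPM in HRT control. In each line 5 of 6 overloaded libraries lay above all controls. The exceptions were replicate 5 in LRT overload and replicate 3 in HRT overload. The log2 fold change was 1.58 ± 0.289 in LRT (SE; edgeR adjusted p = 8.33e-05) and 1.36 ± 0.282 in HRT (edgeR adjusted p = 0.00025). In bulk muscle, fewer or more cells of a type and a change in RNA per cell cannot be told apart.

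Actb, the cytoplasmic beta-actin, rose 2.22-fold in LRT and 2.89-fold in HRT, with the smallest errors of the 3. LRT overload libraries ran from 318.1 over a median of 453.3 to 522.5 CPM, against 180.4, 194.0 and 228.3 CPM in LRT control. HRT overload libraries ran from 441.2 over a median of 611.6 to 715.3 CPM, against 176.5, 207.3 and 232.3 CPM in HRT control. All overloaded libraries lay above all controls of their line. On the log2 scale Actb changed by 1.15 ± 0.122 in LRT (SE; edgeR adjusted p = 6.32e-08) and 1.53 ± 0.123 in HRT (edgeR adjusted p = 5.03e-10). Actb is often used to scale measurements of other genes, and in these muscles it differed with the treatment.

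RNA integrity moved with overload. RIN was 8.67 ± 0.258 in LRT overload and 8.28 ± 0.147 in LRT control, and 8.97 ± 0.327 in HRT overload and 8.27 ± 0.216 in HRT control (SD, n = 6 each). In HRT, RIN ran from 8.6 to 9.4 in overload and from 8 to 8.6 in control. A RIN covariate can therefore hardly separate RNA integrity from overload there. With RIN as a covariate, Actc1 rose by 2.20 in LRT and by 3.72 in HRT on the log2 scale (edgeR adjusted p = 0.000904 and 3e-05). With RIN and the replicate number as a block together, Actc1 rose by 1.63 in LRT and by 2.96 in HRT (edgeR adjusted p = 0.0169 and 0.00288), the smallest log2 fold changes of any setting tried. The calls for Actc1, Acta2 and Actb held in both lines over all 23 other settings tried for each, which left out single libraries, changed the tool, scaling, filter or dispersion, or added RIN or the replicate number.

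**Figure D3:**
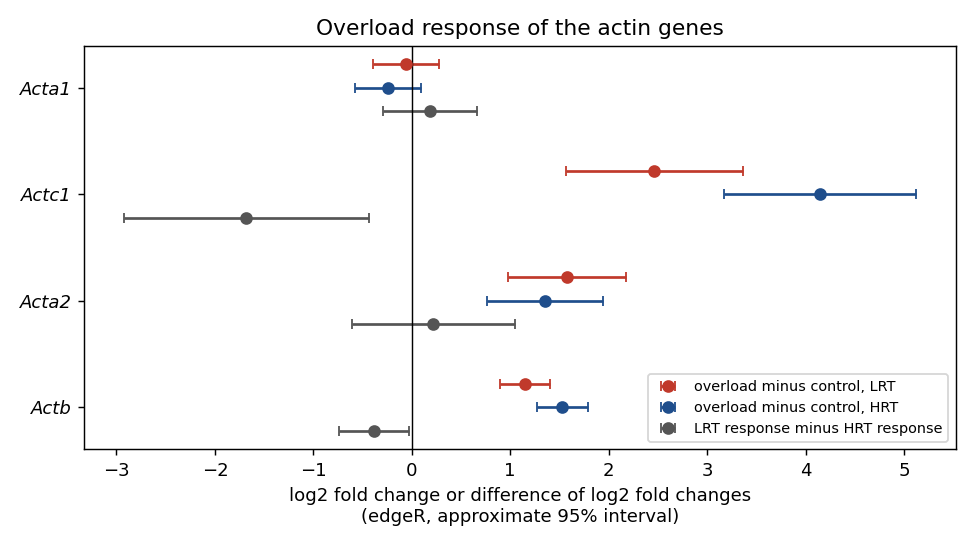
edgeR log2 fold changes of overload against control in LRT and in HRT, and the LRT response minus the HRT response, for the 4 tested actins, with approximate 95% intervals (log2 units). Actc1, Acta2 and Actb lie right of 0 in both lines, and Acta1 spans 0 in both. The difference of responses is furthest from 0 for Actc1, at -1.68.

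The study set the lines against each other, and the next comparison was the difference between their responses. The Actc1 response was smaller in LRT than in HRT by 1.68 ± 0.597 on the log2 scale (difference -1.68, approximate interval -2.93 to -0.44), which did not pass (edgeR unadjusted p = 0.0102, adjusted p = 0.235). The Actb difference was -0.38 ± 0.17 (edgeR unadjusted p = 0.0344, adjusted p = 0.332). The differences of Acta1, at 0.18 ± 0.228, and Acta2, at 0.22 ± 0.397, had edgeR adjusted p of 0.748 and 0.84. None of the 4 actins passed, in a comparison where 0.048% of genes passed. With the unadjusted threshold of 0.05, 2 of the 4 fell below it, as did 13.6% of all tested genes. DESeq2 and limma-voom also called 0 of the 4.

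In overloaded muscle, Actb was lower in LRT than in HRT. It averaged 443.8 ± 69.3 CPM in LRT overload and 601.3 ± 116 CPM in HRT overload (SD, n = 6 each), and 2 of the 6 LRT libraries lay below all HRT libraries. The log2 fold change, LRT over HRT, was -0.44 with an SE of 0.121 (edgeR adjusted p = 0.0463), in a comparison where 3.09% of genes passed. The call was lost in 13 of 23 other settings. A fit to these 2 groups alone gave an adjusted p of 0.203. It was also lost without any one of HRT overload replicates 1, 2, 5 and 6 and LRT overload replicates 1, 3, 4, 5 and 6, with adjusted p between 0.0539 and 0.12. The log2 fold change stayed between -0.60 and -0.36 over all these settings.

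The other actins did not pass between the lines in overloaded muscle. Acta1 averaged 28870 ± 4170 CPM in LRT overload and 22280 ± 6970 CPM in HRT overload (SD, n = 6 each), and its log2 fold change was 0.37 with an SE of 0.162 (edgeR adjusted p = 0.174). Acta1 passed in 1 of 23 other settings, without HRT overload replicate 4, where it was 0.50 (edgeR adjusted p = 0.0448). Actc1 averaged 58.4 ± 34.4 CPM in LRT overload and 106.3 ± 55.9 CPM in HRT overload (log2 fold change -0.86 ± 0.404, edgeR adjusted p = 0.211). Acta2 averaged 24.8 ± 9.13 CPM in LRT overload and 35.2 ± 14.1 CPM in HRT overload (log2 fold change -0.50 ± 0.275, edgeR adjusted p = 0.283).

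In control muscle 0 of the 4 actins passed between the lines with edgeR, DESeq2 or limma-voom, in a comparison where 1.97% of genes passed with edgeR. Actc1 averaged 10.6 ± 3.31 CPM in LRT control and 5.98 ± 1.79 CPM in HRT control (SD, n = 6 each; log2 fold change 0.82 ± 0.44, edgeR unadjusted p = 0.0765, adjusted p = 0.363). Acta2 averaged 8.34 ± 2.43 CPM in LRT control and 13.8 ± 3.81 CPM in HRT control (log2 fold change -0.72 ± 0.289, edgeR unadjusted p = 0.0197, adjusted p = 0.197), and 5 of 6 LRT libraries lay below all HRT libraries. Acta1 and Actb had log2 fold changes of 0.19 ± 0.162 and -0.06 ± 0.121 (edgeR adjusted p = 0.603 and 0.869). Of the 4 actins, 1 had an unadjusted p under 0.05, as did 16.6% of all tested genes.

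From the highest to the lowest mean, the order of the groups differed between genes. Actc1 was ordered from HRT overload over LRT overload and LRT control to HRT control. Acta2 and Actb were ordered from HRT overload over LRT overload and HRT control to LRT control. Acta1 was ordered from LRT control over LRT overload and HRT control to HRT overload, and the ranges of all its groups overlapped. For Actc1, Acta2 and Actb, neighbours of the same state overlapped, and only the Actb neighbours in overloaded muscle passed the test between them.

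Setting Actc1 against Acta1 within a library removes the scaling, and gene length cancels between libraries. Actc1 had 0.832 to 5.02 counts per 1000 Acta1 counts in LRT overload (median 1.57), against 0.269 to 0.513 in LRT control (median 0.319). In HRT overload it had 0.649 to 10.3 (median 5.96), against 0.163 to 0.328 in HRT control (median 0.223). In each line all overloaded libraries exceeded all controls. The mean log2 ratio was higher in overload by 2.36 ± 0.411 in LRT and by 4.21 ± 0.643 in HRT (SE; exact permutation p = 0.00216 each, two-sided, adjusted p = 0.00541 over 5 tests). With 6 libraries a group, no smaller p is possible.

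The ratio also differed between the lines in control muscle. It was higher in LRT control than in HRT control by 0.63 ± 0.201 (SE; exact permutation p = 0.00866, adjusted p = 0.0144, two-sided). With medians in place of means the difference was 0.51 and the call was lost (exact permutation, adjusted p = 0.0568). Neither gene alone passed between the lines in control muscle (edgeR adjusted p = 0.363 for Actc1 and 0.603 for Acta1). In overloaded muscle the mean log2 ratio was -9.16 in LRT and -7.94 in HRT, and the difference of -1.22 ± 0.736 did not pass (exact permutation p = 0.132, adjusted p = 0.132). With medians it was -1.90 (adjusted p = 0.0866). The difference passed in 1 of 13 other settings, which left out HRT overload replicate 4 (-1.74, exact permutation, adjusted p = 0.0234). In that library Acta1 was highest and Actc1 lowest of its group. Over all 13 settings the adjusted p reached 0.238.

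The rise of the ratio was smaller in LRT than in HRT by 1.85 ± 0.763 on the log2 scale (permutation p = 0.0234 over 100000 permutations of the line labels within each state, two-sided, adjusted p = 0.0292). Those permutations take the lines as alike in each state, which the control difference above goes against. The control difference of 0.63 and the overloaded difference of -1.22 both enter the value of 1.85. The call was lost in 7 of 24 fits without single libraries, which were LRT overload replicates 3, 4 and 5 and HRT overload replicates 1, 2, 3 and 6, with adjusted p between 0.0527 and 0.067. Salmon divides reads between similar genes, and Acta1 has far more reads than Actc1. A small share of Acta1 reads counted as Actc1 would enter this ratio in every comparison, that of control muscle included. The size of that share was not tested. Within HRT overload the ratio spanned 15.9-fold and within LRT overload 6.03-fold, against 2.02-fold in HRT control and 1.91-fold in LRT control.

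**Figure D4:**
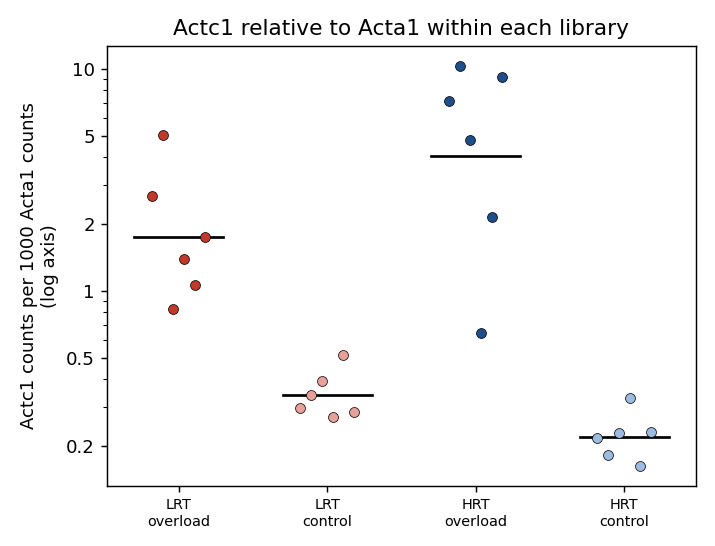
Actc1 estimated counts per 1000 Acta1 estimated counts in each library (log axis), with LRT overload, LRT control, HRT overload and HRT control from left to right and lines at geometric means. Overloaded libraries lie between 0.649 and 10.3 and control libraries between 0.163 and 0.513.

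Summed, the 3 alpha-actins held 3.01% ± 0.308 in LRT overload and 2.65% ± 0.243 in LRT control, and 2.53% ± 0.545 in HRT overload and 2.49% ± 0.172 in HRT control of all counts (SD, n = 6 each, with counts not corrected for gene length). A sum over these genes does not depend on how reads were divided among them. Acta1 supplied 98.61% to 99.86% of this sum in HRT overload and 99.91% to 99.94% in HRT control. In LRT it supplied 99.34% to 99.86% in overload and 99.92% to 99.95% in control.

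The same libraries often stood out for several actins. HRT overload replicates 1, 2 and 6 had the 3 highest Actb and Acta2 levels of their group and the 3 lowest Acta1 levels. These 3 libraries also had the highest TMM factors of their group, 1.223 to 1.282, against 1.013 to 1.093 in the other HRT overload libraries. HRT overload replicate 3 had the lowest Actb and Acta2 levels, at 441.2 and 17.1 CPM, but an Actc1 level of 131.5 CPM, close to those of replicates 1 and 2. LRT overload replicate 2 had the lowest Acta1 level and the highest Actc1, Acta2 and Actb levels of its group, and its TMM factor was 1.18, against 0.977 to 1.046 in the other LRT overload libraries. The part of the factor in these levels was not tested. LRT overload replicate 5 had the lowest Acta2 and Actb levels, at 10.3 and 318.1 CPM.

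Correlations of log2 CPM between the 4 actins were computed within each group of 6, 24 relations in all, and none passed after adjustment. For Acta2 and Actb, Pearson's r was 0.926 in HRT overload (exact permutation p = 0.00694, adjusted p = 0.167), and Spearman's rho was 0.943 (exact permutation p = 0.0167, adjusted p = 0.4). Leaving out the 2 libraries farthest from the Acta2 median, r was 0.803. In LRT overload r was 0.894 (exact permutation p = 0.0431, adjusted p = 0.334) and rho was 0.6 (exact permutation p = 0.242, adjusted p = 0.447). There the relation rested on the 2 outer libraries, since r was -0.645 without them. For Acta1 and Actb in HRT overload, r was -0.828 (exact permutation p = 0.05, adjusted p = 0.334) and rho was -0.714 (exact permutation p = 0.136, adjusted p = 0.447), with r at -0.979 without the 2 outer libraries. In LRT overload r for Acta1 and Actb was -0.046 (exact permutation p = 0.963, adjusted p = 0.963) and rho was -0.0286 (exact permutation p = 1.0, adjusted p = 1.0), and r was 0.631 without the 2 outer libraries.

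**Figure D5:**
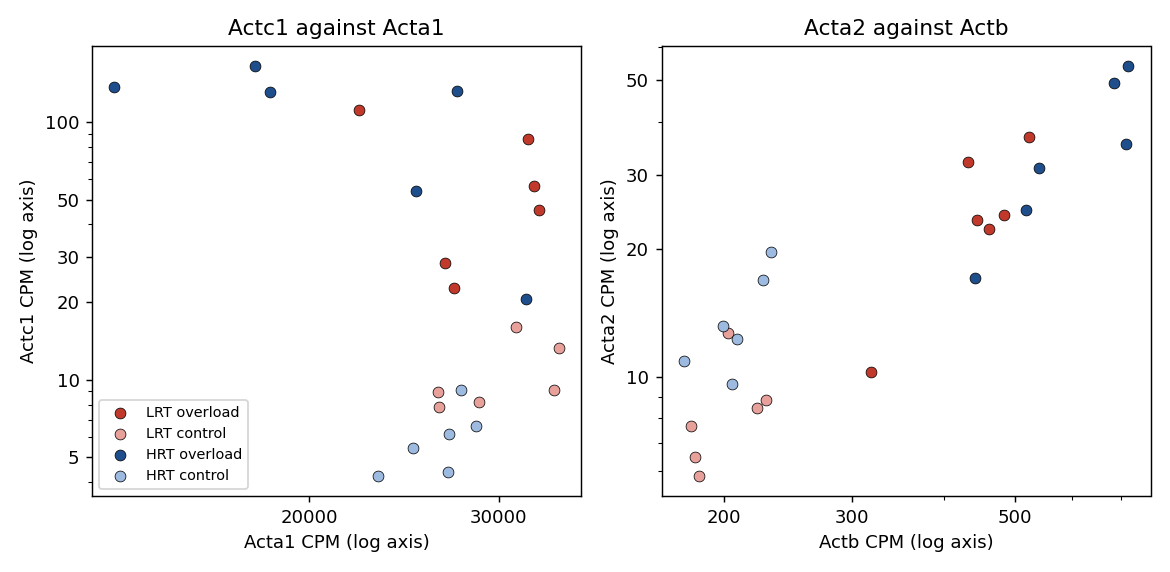
Actc1 against Acta1 (left) and Acta2 against Actb (right) in CPM on log axes, 1 point per library, coloured by group. Overloaded libraries lie above controls of their line in Actc1, while their Acta1 levels lie below, within or above the control range, and the overloaded libraries with the highest Actb, at 683.8 to 715.3 CPM in HRT, have Acta2 levels of 35.4 to 53.9 CPM.

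Likeness over the whole table was described by the correlation of deviations from group means over all 24 libraries, which share scaling and depth. Overloaded libraries vary most and so weigh most in it. Ranked among 16660 other genes by likeness to Acta2, Actb was at place 58 (r = 0.837), Actc1 at 3947 (r = 0.349) and Acta1 at 13776 (r = -0.448). For Actb, Acta2 was at place 112 of 16660. For Acta1 the other actins stood low, with r between -0.448 and -0.397. The gene most like Acta2 was ENSRNOG00000054890 (r = 0.962), which rose with overload by 1.34 in LRT and 1.52 in HRT on the log2 scale (edgeR adjusted p = 3.97e-06 and 4.78e-07). The gene most like Actc1 was ENSRNOG00000001007 (r = 0.87), which rose by 0.79 in LRT and 1.44 in HRT (edgeR adjusted p = 0.0214 and 0.000151). The nearest genes of Actb and Acta1 had r of 0.94 and 0.912. That of Actb rose by 1.29 in LRT and 1.68 in HRT (edgeR adjusted p = 9.14e-07 and 1.31e-08). That of Acta1 stood at 0.09 in LRT and 0.04 in HRT and did not pass (edgeR adjusted p = 0.527 and 0.763).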

How the data were processed

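Plantaris was homogenised and its total RNA prepared with an Illumina TruSeq kit, per the labels' protocols. The deposited table holds estimated counts per Ensembl gene ID, not normalized. Salmon 0.9.1 and the builds rn6 and Rnor_6.0 appear in the submitters' processing notes. Its settings and its annotation were not given in the sources used here. Counts were rounded. With a minimum count of 10 and a minimum total of 15, filterByExpr kept 16661 genes, which held 99.95% of counts. All 24 libraries entered 1 quasi-likelihood model in edgeR 4.0.16 (R 4.3.3, TMM, robust dispersion, 1 coefficient for each group). The model was also run on simulated counts, with few changed genes and the same dispersion for all. That run does not test it for data in which most genes change. It gave 5 contrasts: the overload response of LRT and of HRT, their difference, and the line difference in overloaded and in control muscle. SEs are approximate and were derived from F. Correlations use log2 CPM with a prior count of 2. Ratios and correlations were tested by permutation (924 splits or 720 orderings enumerated). Alternatives used DESeq2 1.42.0, limma 3.58.1 and other edgeR settings. Depth limits Actc1 and Acta2 most, since they had the fewest counts. Promoters came from RefSeq (GRCr8), whose coordinates were used for nothing else. The rule for the members uses gene IDs alone, but members, lists and tests were chosen with earlier results of these data known. Genes named besides the members are those with the highest r to a member, at most 2 that rose. Gene lists and cell type markers chosen by symbol were not tested, because 0 of the IDs matched 47357 RefSeq genes. The ratio of Actb to Actg1 was not computed, because Actg1 was listed at 0. Plots were drawn with matplotlib 3.10.9.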

Additional observations from a re-analysis of the deposited data

Results flagged for a closer look

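One result, the difference between responses in the ratio of Actc1 to Acta1, passed its permutation test. The mean log2 ratio of Actc1 to Acta1 counts rose with overload by 2.36 in LRT and by 4.21 in HRT, a difference of -1.85 ± 0.763 (SE; permutation p = 0.0234, adjusted p = 0.0292 over 5 tests). The call was lost in 7 of 24 fits without single libraries, with adjusted p of 0.0527 to 0.067. The permutations take the lines as alike in each state, while the ratio differed between the lines in control muscle (exact permutation, adjusted p = 0.0144). The log2 ratio, LRT minus HRT, differed by 0.63 in control muscle. In overloaded muscle it differed by -1.22, which did not pass (exact permutation, adjusted p = 0.132). Both parts enter the difference between responses. In edgeR the same difference for Actc1 alone, at -1.68, did not pass (adjusted p = 0.235). In 20 checks of groups of 6 libraries, over 4 genes and the ratio in 4 groups, no library stood apart from its group by Dixon's criterion.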

How the results depend on the processing

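For Actc1, Acta2 and Actb the overload calls kept their direction and side of the threshold in both lines under all 23 alternatives for each. Acta1 in LRT was 0.18 under scaling by totals alone, -0.27 with RIN, -0.22 with the replicate block and RIN, and between -0.10 and 0.0047 with 1 library removed at a time. In HRT Acta1 was 0.016 under scaling by totals, -0.63 with RIN, -0.58 with the replicate block and RIN, and -0.37 to -0.13 as single libraries were left out. The number of actins called between lines in overloaded muscle, 1 in the main model, was 0 with limma-voom, DESeq2 size factors, no filter or the compared groups alone, and 0 to 2 as single libraries were left out. With single libraries left out, the ratio of Actc1 to Acta1 differed between responses by -2.38 to -1.58 and between lines in overloaded muscle by -1.74 to -0.95. With medians its line difference was 0.51 in controls and -1.90 in overloaded muscle, and the difference between responses was -2.42. The causes were not tested.

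Counts over all genes moved more. For the difference between responses, 8 genes became 143 (DESeq2), 2 (limma-voom), 1 (DESeq2 size factors), 5 (no filter), 5 (not robust), 2 (RIN), 1 (replicate block), 1 (replicate block with RIN) and 1 to 25 without single libraries. For the lines in overloaded muscle, 514 became 1085 (DESeq2), 2153 (totals), 307 (no filter), 785 (RIN), 289 (replicate block with RIN), 115 (compared groups alone) and 171 to 1647 without single libraries. For the lines in control muscle, 328 became 624 (DESeq2), 206 (no filter) and 154 to 495 without single libraries. Scaling by totals also moved the split of overload calls to 6765 higher and 1893 lower genes in LRT, against 4808 and 4716, and to 7942 and 2238 in HRT, against 5319 and 5204.

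The labels do not say that equal replicate numbers share a rat. Deviations from group means correlated over 0.1 for 1 of 6 equal-numbered pairs in LRT, 0 of 6 in HRT, 3 of 6 between the overload groups and 0 of 6 between the control groups. Libraries that correlated best with their own number were 1, 2, 1 and 0 of 6, in the same order. This check covers equal numbers only and cannot show whether libraries share a rat. The numbers were not taken as pairs, because the labels do not give them as such. With the replicate block, the log2 fold change of Actc1 was 2.32 in LRT and 4.01 in HRT, and no actin call in the overload comparisons changed. With the replicate block and RIN it was 1.63 in LRT and 2.96 in HRT, and Acta1 in HRT became a call (edgeR adjusted p = 0.0459). The ratio of Actb to Actg1 and its alternatives were not run.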
